A study of Mus musculus with 29 samples.

Results

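The genes examined here carry long-chain fatty acids from the bloodstream into the mitochondria of the mouse atrium. They were taken by name from a fixed set of 10 genes: Cd36, Slc27a1, Lpl, Fabp3, Fabp4, Acsl1, Cpt1a, Cpt1b, Slc25a20 and Cpt2. All 10 were found among the 55292 gene names of the count files, and all 10 passed the low-count filter. Over both genotypes, the high-fat diet went with more Cd36 (the sarcolemmal fatty acid translocase) and Slc25a20 (the carnitine-acylcarnitine translocase of the inner mitochondrial membrane) and with less Cpt1a (an isoform of the outer-membrane carnitine palmitoyltransferase). The other 7 genes did not pass the test for the diet, and no gene of the 10 passed it for genotype or for nicotinamide riboside.

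The heart draws most of its energy from fatty acids. Lipoprotein lipase, anchored on capillary endothelium, frees them from circulating triglyceride, CD36 and the fatty acid transport proteins move them into the cardiomyocyte, and fatty acid binding proteins carry them through the cytosol. An acyl-CoA synthetase activates them, and carnitine palmitoyltransferase 1, the translocase and carnitine palmitoyltransferase 2 pass them across the mitochondrial membranes as carnitine esters. The step at carnitine palmitoyltransferase 1 is inhibited by malonyl-CoA, and many of these genes are known targets of PPAR receptors.

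The 29 libraries hold poly-A RNA of atria of male mice. In one experiment, control mice (Ctrl) and mice of the genotype labelled NaV1.5, described as transgenic, received a regular diet (RD) or a high-fat diet (HFD) for 4 weeks beginning at 5 weeks of age, giving 4 libraries each of Ctrl_RD, Ctrl_HFD and NaV1.5_RD and 5 of NaV1.5_HFD. In the other, NaV1.5 mice on the high-fat diet, from the same age and for the same time, were given vehicle (5 libraries) or the NAD precursor nicotinamide riboside (NR, 7 libraries), so both groups share the transgene and the diet. The sources used here give neither the promoter of the transgene nor whether every library is a separate mouse, so a p-value covers the spread among the libraries, which may be technical.

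Total counts were 13189995 to 33061018 per library. The only library of the diet experiment outside batch 1 is Ctrl_HFD replicate 4, of batch 2, and the batch term takes it out of the diet and genotype differences, which rest on the 3 batch 1 Ctrl_HFD libraries. All vehicle libraries and NR replicates 6 and 7 are of batch 3, while NR replicates 1 to 5 are of batch 2. The labels give no number for Ctrl_RD replicate 1 and NaV1.5_RD replicate 4, which were numbered here. A chi-square of counts between pairs of libraries, averaged over genes, served as a distance without a p-value, and it grows with depth. By it NaV1.5_RD replicate 4 stood apart from the others of its group, by 38.12 to 48.69 per gene against 6.93 to 12.51 among the other 3. Ctrl_RD replicate 4 also stood apart (19.63 to 30.56 against 7.19 to 14.73 among the other 3), as did Ctrl_HFD replicate 1 from replicates 3 and 4 (38.66 and 37.33). The atrial markers were present throughout, with Nppa (atrial natriuretic peptide) at a mean of 21290 CPM (counts scaled to a common library size) in Ctrl_RD. Ucp1 (the brown fat uncoupling protein) was listed at 0 in all 4 Ctrl_RD libraries and reached at most 0.0780 CPM in the batch 1 libraries of Ctrl_HFD, while Adipoq (adiponectin, of white fat) was at 1.63 to 3.73 CPM in Ctrl_RD.

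Start-site sequences are shown for the 3 genes that changed with the diet, because PPAR receptors with RXR are known to bind pairs of the half-site AGGTCA in tandem with 1 base between. RefSeq sequences on GRCm38, 250 bases before to 30 after a listed start site, were matched for 7 of the 10 genes. The Cd36 and Cpt1a windows lie inside the gene bounds given below, so they are not at the outermost start of these genes. Capitals mark an exact AGGTCA on either strand or the tandem pair with up to 2 mismatches.

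Cd36, chr5:17835867-17836146, minus strand: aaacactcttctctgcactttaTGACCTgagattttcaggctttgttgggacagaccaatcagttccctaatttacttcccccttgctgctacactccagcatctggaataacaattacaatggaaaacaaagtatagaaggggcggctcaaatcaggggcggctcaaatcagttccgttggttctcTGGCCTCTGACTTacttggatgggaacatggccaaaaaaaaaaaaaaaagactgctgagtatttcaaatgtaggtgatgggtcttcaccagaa

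Slc25a20, chr9:108661886-108662165, plus strand: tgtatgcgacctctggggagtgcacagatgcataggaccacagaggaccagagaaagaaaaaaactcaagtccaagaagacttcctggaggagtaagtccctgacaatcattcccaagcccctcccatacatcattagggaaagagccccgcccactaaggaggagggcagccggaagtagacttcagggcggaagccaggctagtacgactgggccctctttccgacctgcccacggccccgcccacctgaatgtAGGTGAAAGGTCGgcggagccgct

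Cpt1a, chr19:3323051-3323330, plus strand: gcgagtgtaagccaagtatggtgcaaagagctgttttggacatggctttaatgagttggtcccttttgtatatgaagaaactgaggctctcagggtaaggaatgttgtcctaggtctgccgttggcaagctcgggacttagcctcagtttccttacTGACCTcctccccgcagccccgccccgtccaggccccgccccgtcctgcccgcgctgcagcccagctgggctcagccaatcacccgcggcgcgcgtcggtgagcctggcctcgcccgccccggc

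The exact half-site occurred in 2 of the 10 start sites listed for the 7 genes (Cd36 and Cpt1a), against 15.3% of 32851 start sites in the genome. The pair with up to 2 mismatches occurred in 2 (Cd36, beginning at -63 on the minus strand of the printed sequence, and Slc25a20, beginning at 7 bases past the start), against 3.58% of all. The Cd36 pair does not overlap its exact half-site. These matches describe letters only, and the Cpt1a window held no pair under 4 mismatches.

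Per kilobase of exon, which allows levels to be set beside each other, Fabp3 led in Ctrl_RD with a mean of 857 CPM per kilobase, followed by Lpl (181), Cd36 (156) and Fabp4 (89.3). Next in these units were Cpt2 (65.3), Slc27a1 (47.0), Acsl1 (37.7), Slc25a20 (22.0), Cpt1a (11.5) and Cpt1b (3.06). The order is approximate, because the length is that of all annotated exons of a gene together (10478 bases for Lpl, 10483 for Acsl1). A level is understated wherever this exceeds the transcript in use, which was not measured. The place of 3 genes has further limits. Cpt1b (chr15:89416405-89425863), the muscle isoform of carnitine palmitoyltransferase 1, shares all but 628 of its 3372 exon bases with the read-through gene Gm44502 on its own strand. Fragments over both were left out, so the Cpt1b count is a remainder (18.6% of exon bases), and neither its level nor its ratio to Cpt1a can be read as a level. Fabp3 has a near-identical pseudogene, Fabp3-ps1, and shares exon bases with opposite-strand genes. The exon model of Fabp4 covers its whole gene body (4489 bases), so its level per kilobase is understated.

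**Figure D1:**
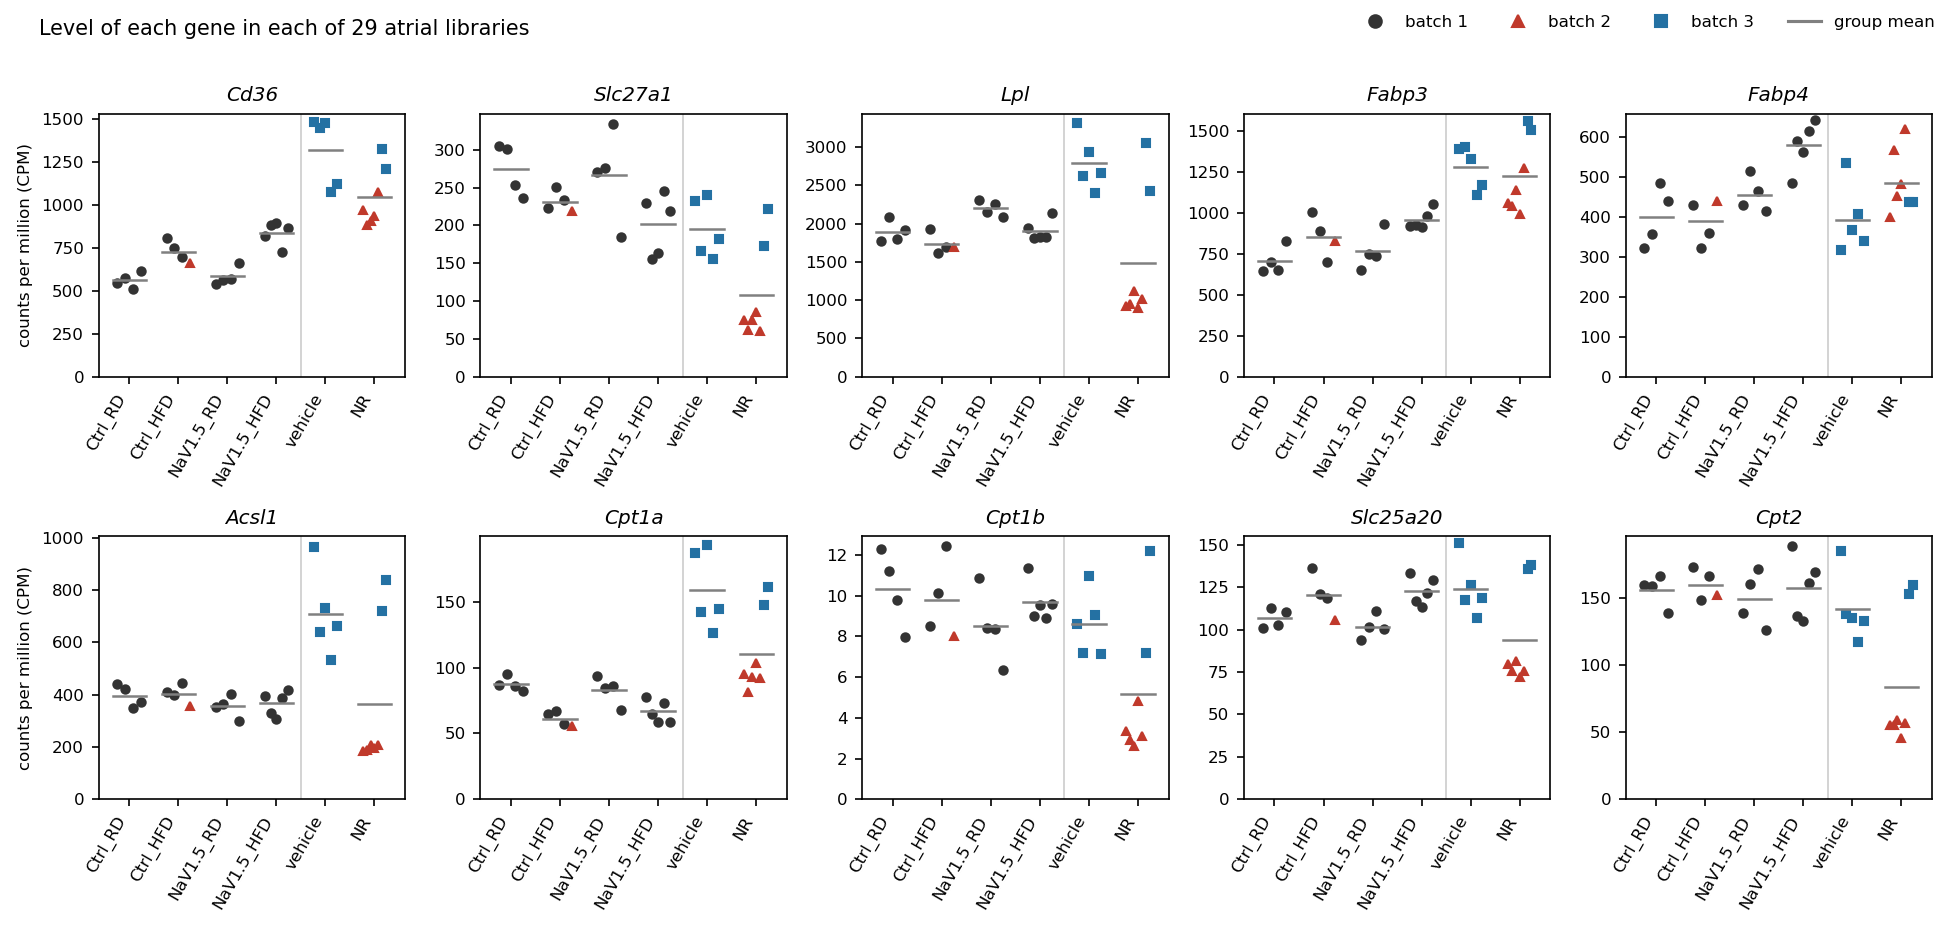
CPM (vertical axis, linear from 0) of the 10 genes in each of 29 libraries by group (horizontal axis); points are libraries coloured by batch, grey bars are group means, and the vertical line parts the separately scaled experiments. Every Cd36 point of NaV1.5_HFD (724.5 to 895 CPM) lies above those of NaV1.5_RD (540 to 661 CPM), and in NR the batch 2 libraries lie apart from the batch 3 libraries.

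The diet comparison asks which genes differ between HFD and RD. Over both genotypes, as the mean of the 2 diet differences, 3 of the 10 genes were called (2 higher, 1 lower), against 4.95% of 16168 genes tested. Within NaV1.5 mice 1 of the 10 (Cd36) was called, against 1.13%, and within control mice none was, against 0%. In controls edgeR called no gene at all, with 1372 genes at an unadjusted p under 0.05, whereas DESeq2 called 15 and limma-voom 69. The median log2 difference of the 10 genes over both genotypes was 0.08, beside -0.01 over all genes tested.

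Cd36, on chr5:17781690-17888801, takes up fatty acids at the cell surface. In Ctrl_RD it was at 547, 573, 510.1 and 614.5 CPM, and in Ctrl_HFD at 807.5, 748 and 697 CPM in batch 1 and 659.6 CPM in the batch 2 library. In NaV1.5_RD it was at 540, 564, 570.3 and 661 CPM, and in NaV1.5_HFD at 819, 884, 895, 724.5 and 867 CPM. In both genotypes every HFD library stood above every RD library. Over both genotypes Cd36 rose by a log2 difference of 0.47 (SE 0.07, 1.39-fold, adjusted p = 0.00239), and by 0.52 in NaV1.5 mice (SE 0.09, adjusted p = 0.0178). The difference in controls was 0.42 (SE 0.10, adjusted p = 0.480), and the diet by genotype term was 0.10 (SE 0.14, adjusted p = 1.00).

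Cd36 was called over both genotypes in all 17 fits that left out 1 library each. In NaV1.5 mice alone the call was lost in 4 of them, those without NaV1.5_RD replicate 2 or 3 or NaV1.5_HFD replicate 2 or 3 (adjusted p up to 0.0674), and with the replicate number as a block (adjusted p = 0.0589). Across 15890 genes with a known GC content, which are not independent replicates, the diet difference fell with GC (Spearman's rho -0.492), and Cd36 is AT-rich at 38.4% GC beside a median of 49.7%. With offsets for GC content and length its difference over both genotypes was 0.31 (SE 0.05, adjusted p = 0.00596).

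Slc27a1 (fatty acid transport protein 1, chr8:71568882-71587302) did not pass. It was at 306, 301, 254 and 236 CPM in Ctrl_RD and at 223, 250.3 and 234 CPM in the batch 1 Ctrl_HFD libraries. It was at 271, 276, 334 and 185 CPM in NaV1.5_RD, with replicate 4 the lowest, and at 229.8, 156, 163, 246 and 219 CPM in NaV1.5_HFD. The diets overlapped in both genotypes, with a log2 difference over both of -0.31 (SE 0.12, adjusted p = 0.124). Without NaV1.5_RD replicate 4, 5 of the 10 genes were called over both genotypes (3 higher, 2 lower, with 2202 genes called in all), and Slc27a1 was among them (adjusted p = 0.0202). It also passed with limma-voom (adjusted p = 0.00967), but not with DESeq2 (0.0777), no batch term (0.0789) or the replicate block (0.0974). Slc27a1 is GC-rich at 56.9% GC. With the GC and length offsets its difference over both genotypes was -0.17 (SE 0.09, adjusted p = 0.383).

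Lpl (lipoprotein lipase, chr8:68880491-68907448), the most counted of the 10 genes, was at 1776 to 2081 CPM in Ctrl_RD and 1611 to 1934 CPM in the batch 1 Ctrl_HFD libraries. Its range was 2092 to 2304 CPM in NaV1.5_RD and 1809 to 2136 CPM in NaV1.5_HFD. The diets overlapped in each genotype, and the difference over both was -0.16 on the log2 scale (SE 0.07, adjusted p = 0.153), which passed with limma-voom (-0.20, adjusted p = 0.0152) and not with DESeq2 (adjusted p = 0.0558).

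Fabp3, the heart-type fatty acid binding protein (chr4:130308595-130315463), was at 645, 698, 649.7 and 828 CPM in Ctrl_RD and at 1006, 889 and 698 CPM in the batch 1 Ctrl_HFD libraries. In NaV1.5_RD it was at 649, 752, 738 and 933 CPM, and in NaV1.5_HFD at 921.5, 927, 915, 981 and 1053 CPM. All 5 NaV1.5_HFD values exceeded the first 3 of NaV1.5_RD but not all exceeded replicate 4. The difference over both genotypes, 0.31 on the log2 scale (SE 0.09, adjusted p = 0.0518), did not pass. It passed with DESeq2 (adjusted p = 0.0109), limma-voom (0.00226), no low-count filter (0.0196), no batch term (0.0376) and the GC and length offsets (0.0117).

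Acsl1 (long-chain acyl-CoA synthetase 1, chr8:46471037-46536051) activates fatty acids to their CoA esters. It was at 441, 420.3, 349 and 370.2 CPM in Ctrl_RD, and at 411, 397 and 444 CPM in the batch 1 Ctrl_HFD libraries. It was at 353, 366, 402 and 300.2 CPM in NaV1.5_RD and at 395, 328, 306.5, 387 and 417 CPM in NaV1.5_HFD. The 2 diets overlapped, with a log2 difference over both genotypes of 0.06 (SE 0.08, adjusted p = 0.688).

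Cpt1a (chr19:3322334-3385733), the isoform of carnitine palmitoyltransferase 1 that prevails in liver, went the other way from Cd36. It was at 86.5, 95.4, 86.4 and 82.6 CPM in Ctrl_RD and at 64.9, 66.8 and 57.5 CPM in the batch 1 Ctrl_HFD libraries, with 55.5 CPM in the batch 2 library. It was at 94.0, 84.3, 86.2 and 68.1 CPM in NaV1.5_RD and at 77.9, 64.6, 59.0, 73.4 and 58.8 CPM in NaV1.5_HFD. In controls all HFD libraries lay below all RD libraries, while in NaV1.5 mice RD replicate 4 lay among the HFD libraries. Over both genotypes Cpt1a fell by 0.40 on the log2 scale (SE 0.08, 0.760-fold, adjusted p = 0.0112), and it was called in all 17 fits that left out 1 library each. In controls the log2 difference was -0.47 (SE 0.11, adjusted p = 0.480) and in NaV1.5 mice -0.32 (SE 0.10, adjusted p = 0.0993).

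Cpt1b had 7.96 to 12.3 CPM in Ctrl_RD and 8.50 to 12.4 CPM in the batch 1 Ctrl_HFD libraries, as the remainder described above. The log2 difference between diets over both genotypes was 0.09 (SE 0.12, adjusted p = 0.690). The log2 ratio of Cpt1b to Cpt1a, per kilobase, was compared in 4 pairs of groups by an exact 2-sided permutation test on batch 1 libraries. In NaV1.5 mice it was -2.12 ± 0.13 (SD, n = 4) on RD and -1.59 ± 0.18 (SD, n = 5) on HFD, with every HFD library above every RD library (exact permutation p = 0.0159, the smallest this design allows, adjusted over the 4 pairs p = 0.0635). In controls it was -1.92 ± 0.23 (SD, n = 4) and -1.44 ± 0.37 (SD, n = 3; exact permutation p = 0.114, adjusted p = 0.229). The smallest exact permutation p that the control pair allows is 0.0571, so this pair could not pass. The 2 genotype pairs differed by -0.20 on RD and -0.16 on HFD (adjusted exact permutation p = 0.305 and 0.50), so no ratio passed.

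Slc25a20 (chr9:108662088-108684641) exchanges acylcarnitine for carnitine across the inner membrane. It was at 101, 113, 102 and 111 CPM in Ctrl_RD and at 136, 121 and 119 CPM in the batch 1 Ctrl_HFD libraries, with 106 CPM in the batch 2 library. It was at 93.7, 101, 111 and 100.5 CPM in NaV1.5_RD and at 133, 117, 113, 121.5 and 129 CPM in NaV1.5_HFD. In each genotype the batch 1 HFD libraries stood above all RD libraries, by a margin smaller than for Cd36. Over both genotypes Slc25a20 rose by a log2 difference of 0.25 (SE 0.06, 1.19-fold, adjusted p = 0.0211), while neither controls (0.23, SE 0.09, adjusted p = 0.524) nor NaV1.5 mice (0.27, SE 0.08, adjusted p = 0.0728) passed alone. The call was lost without Ctrl_RD replicate 1, Ctrl_HFD replicate 1 or Ctrl_HFD replicate 2 (adjusted p up to 0.0714) and with the replicate block (adjusted p = 0.10).

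Cpt2 (chr4:107903981-107923610) re-forms the CoA ester on the matrix side. It was at 139 to 167 CPM in Ctrl_RD, 149 to 173 CPM in the batch 1 Ctrl_HFD libraries, 127 to 172 CPM in NaV1.5_RD and 133 to 189 CPM in NaV1.5_HFD. These ranges overlapped throughout, and the diet difference over both genotypes was 0.07 on the log2 scale (SE 0.08, adjusted p = 0.654).

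**Figure D2:**
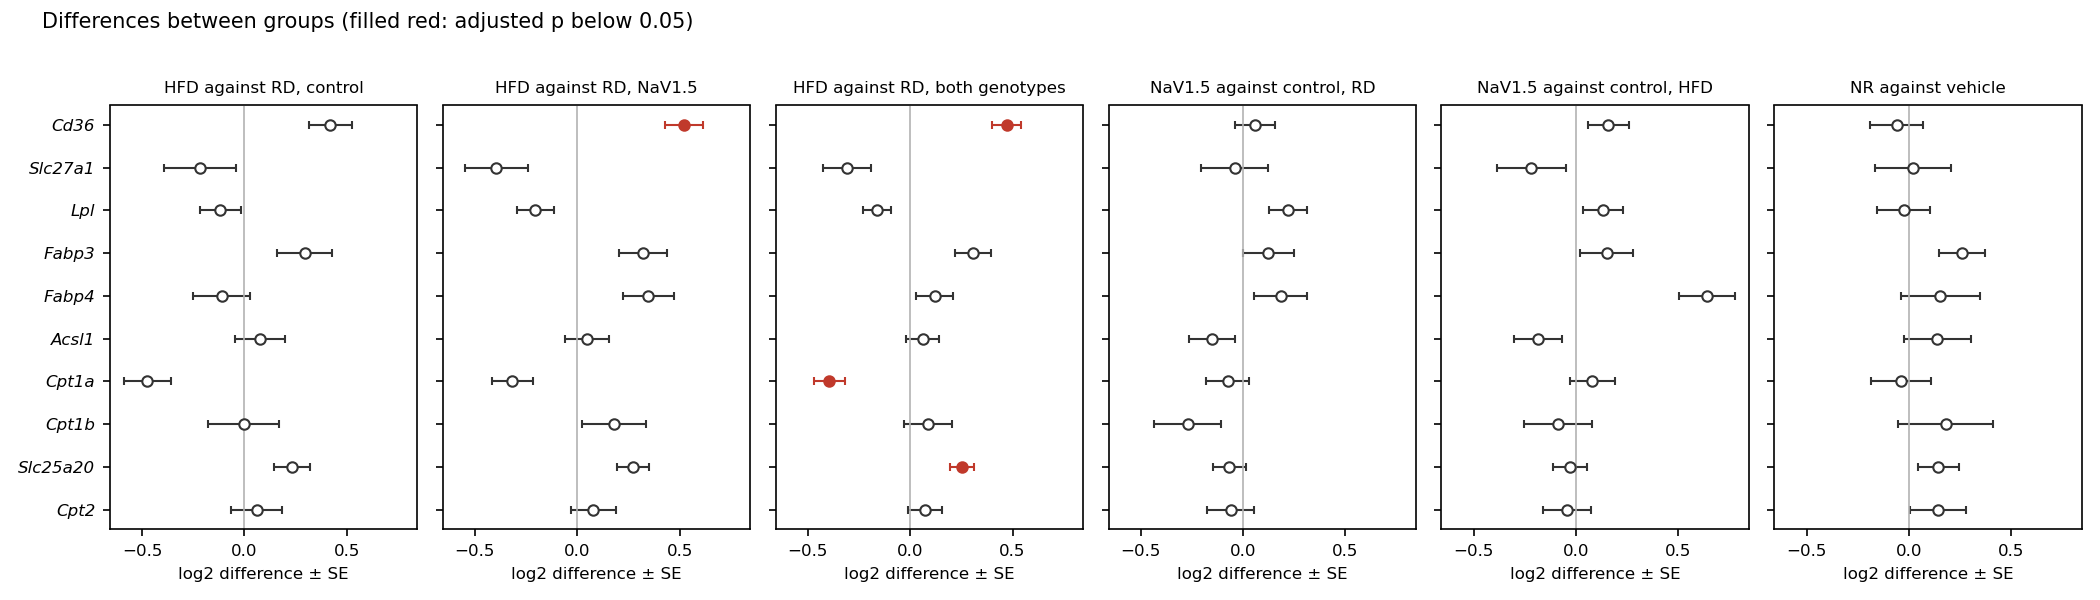
Log2 differences with SE (horizontal axis) of the 10 genes (vertical axis) in 6 comparisons; filled red marks an adjusted p below 0.05. Cd36 (0.47) and Slc25a20 (0.25) lie right of 0 and Cpt1a (-0.40) left of it for the diet over both genotypes, and no gene is marked for genotype or NR.

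**Figure D3:**
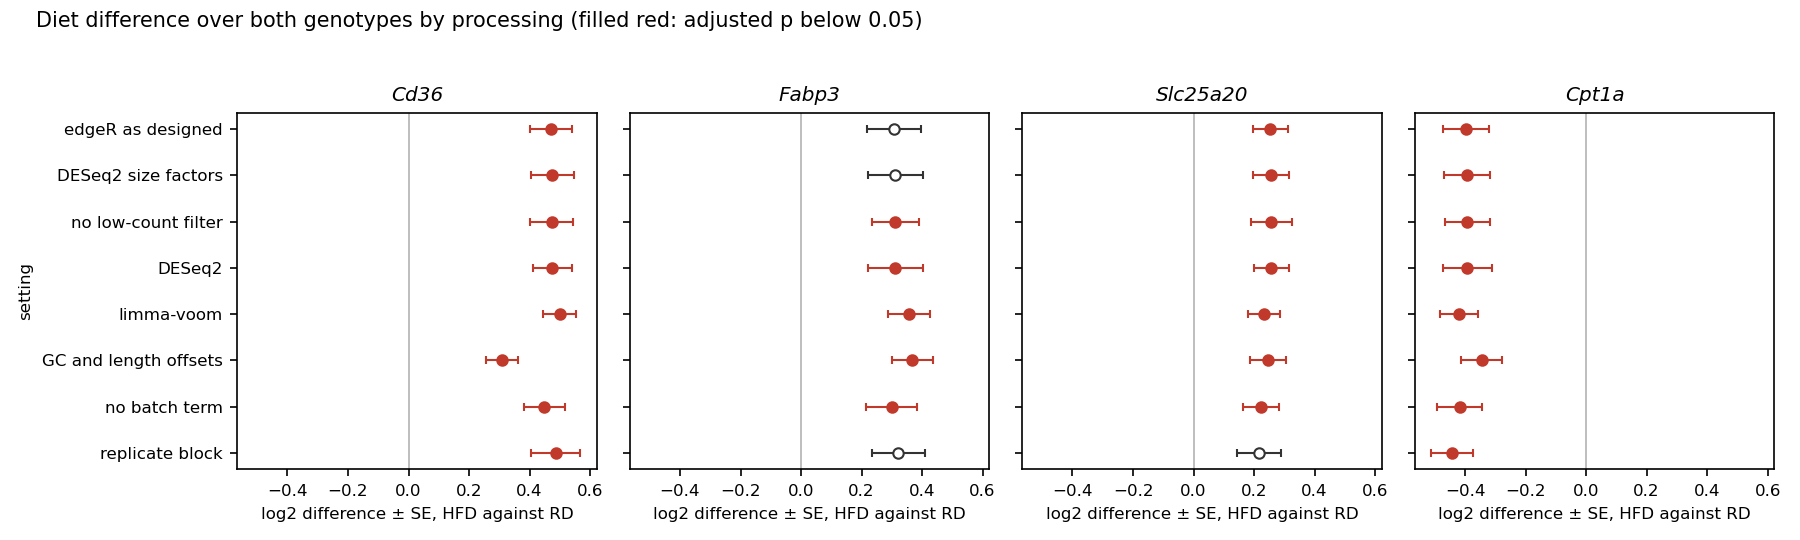
Log2 difference between diets over both genotypes with SE (horizontal axis) for 4 genes under 8 ways of processing (vertical axis); filled red marks an adjusted p below 0.05. Cd36 and Cpt1a are marked under each, Slc25a20 under each but the replicate block, and Fabp3 under 5.

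Some markers of cell types differed between diets as well. Over both genotypes 4.95% of all genes tested were called, with a median log2 difference of -0.01. Of the 11 white adipocyte markers 10 were tested, and their median log2 difference over both genotypes was -1.83, with none above 0 and 2 passing, Plin1 (perilipin 1) and Retn (resistin). Their summed level was 129 to 154 CPM in Ctrl_RD, 101.5 to 124 CPM in the batch 1 Ctrl_HFD libraries, 99.4 to 177 CPM in NaV1.5_RD and 86.6 to 123 CPM in NaV1.5_HFD. Most of this sum was Lipe (hormone-sensitive lipase) and Slc36a2 (an amino acid transporter), at means of 53.76 and 50.05 CPM in Ctrl_RD. Their log2 differences were -0.21 and -0.06 (adjusted p = 0.210 and 0.762), so the sum follows them more than the other markers. Adipoq, at 1.63 to 3.73 CPM in Ctrl_RD and 0.0449 to 4.35 CPM in NaV1.5_RD, reached at most 1.40 and 1.42 CPM in the 2 HFD groups, and its lowest value in NaV1.5_HFD was 0. Cd36, Lpl and Fabp4 are also known adipocyte genes. Of the 10 atrial cardiomyocyte markers 5 had a difference above 0 and the median was -0.03, while 2 fell, Nppa by 0.36 on the log2 scale and Tbx5 (a T-box factor) by 0.50 (adjusted p = 0.00998 and 0.0206). The summed level of these 10 was 85000 to 90990 CPM in Ctrl_RD and 80040 to 86620 CPM in the batch 1 Ctrl_HFD libraries, and 81170 to 90710 CPM in NaV1.5_RD and 70530 to 78020 CPM in NaV1.5_HFD. Of 15 endothelial markers 1 fell (Vwf, von Willebrand factor, by 0.60, adjusted p = 0.0201) and the median was -0.01, and of 15 macrophage markers 1 rose (Mrc1, the mannose receptor, by 0.27, adjusted p = 0.0453) with a median of 0.01. Mitochondrially encoded genes took 18.71 to 21.89% of counts in Ctrl_RD, 20.39 to 26.58% in the batch 1 Ctrl_HFD libraries, 18.82 to 20.62% in NaV1.5_RD and 20.4 to 25.27% in NaV1.5_HFD. The part of these shifts in the diet differences of the 10 genes was not tested, and in whole atria fewer cells of a type and less RNA per cell cannot be told apart.

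Fabp4 (chr3:10204088-10208576), the binding protein of adipocytes and of capillary endothelium, was the gene of the 10 nearest to a genotype call. In Ctrl_RD it was at 323, 356, 484 and 439.7 CPM, and in NaV1.5_RD at 429, 514, 464 and 414 CPM. In the batch 1 Ctrl_HFD libraries it was at 429.6, 323.5 and 361 CPM, with 441 CPM in the batch 2 library, and in NaV1.5_HFD at 485, 590, 564, 616 and 642 CPM. On HFD every NaV1.5 library stood above every control library, whereas on RD the genotypes overlapped. The log2 difference on HFD was 0.64 (SE 0.14, 1.56-fold) with an adjusted p of 0.0771, which did not pass, and it passed with DESeq2 (0.00131), limma-voom (0.0104), no low-count filter (0.00855) and without NaV1.5_RD replicate 4 (0.0453). The diet by genotype term for Fabp4 was 0.46 on the log2 scale (SE 0.19, unadjusted p = 0.0234, adjusted p = 1.00).

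The genotype comparison called none of the 10 genes. The share of all genes called was 0.0124% on RD, 0.0866% on HFD and 0.452% over both diets, and 0% for the diet by genotype term, for which 366 genes had an unadjusted p under 0.05 and neither DESeq2 nor limma-voom called any gene. At an unadjusted p under 0.05 stood 1 of the 10 genes on RD (Lpl, against 6.11% of all genes), 1 on HFD (Fabp4, against 8.05%) and 2 over both diets (Fabp4 and Lpl, against 11.4%). Over both diets the Fabp4 difference was 0.41 on the log2 scale (SE 0.09, adjusted p = 0.0558). It passed with DESeq2 (adjusted p = 0.00268), limma-voom (0.00291) and no low-count filter (0.006445). It did not pass with DESeq2 size factors (0.05495), no batch term (0.05305), the GC and length offsets (0.0608) or the replicate block (0.167). Lpl on RD was at 1776, 2081, 1798 and 1920 CPM in controls and at 2304, 2159, 2252 and 2092 CPM in NaV1.5 mice. These did not overlap, but the log2 difference of 0.22 (SE 0.09) had an adjusted p of 0.798 in edgeR, and DESeq2 and limma-voom called none of the 10 genes on RD.

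Endothelial, macrophage and erythroid markers lay mostly on the NaV1.5 side on HFD, beside Fabp4, with none passing. Of the 15 endothelial markers 12 had a log2 difference above 0 (median 0.20, summed level 2068 to 2115 CPM in the batch 1 Ctrl_HFD libraries and 2048 to 2854 CPM in NaV1.5_HFD). All 15 macrophage markers were above 0 (median 0.22, summed level 880 to 1073 and 999 to 1279 CPM). All 6 erythroid markers tested were above 0 (median 1.60, summed level 571 to 764 and 864 to 2915 CPM). White adipocyte markers were above 0 in 1 of 10 (median -0.72, summed level 101.5 to 124 and 86.6 to 123 CPM). That sum is again mostly Lipe and Slc36a2, at log2 differences of 0.35 and -0.37 (adjusted p = 0.526 and 0.51). The summed level of the 10 atrial cardiomyocyte markers was 80040 to 86620 CPM in the batch 1 Ctrl_HFD libraries. In NaV1.5_HFD it was lower, at 70530 to 78020 CPM, without overlap. The share of all genes above 0 was not set beside these counts of markers. The part of these shifts in the Fabp4 difference was not tested.

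Nicotinamide riboside was set against vehicle to see whether the supplement changed the atrial transcriptome on HFD. None of the 10 genes passed, against 0.425% of 16482 genes tested, and 1 had an unadjusted p under 0.05 (Fabp3, against 11.1% of all genes), with none called by DESeq2 or limma-voom. The comparison rests on the 5 vehicle libraries and 2 NR libraries of batch 3. Fabp3 was at 1388, 1403, 1329, 1108 and 1168 CPM with vehicle and at 1559 and 1504 CPM in these NR libraries. The groups did not overlap, and the log2 difference was 0.26 (SE 0.11, adjusted p = 0.395). Cd36 was at 1481, 1446, 1478, 1075 and 1124 CPM with vehicle and at 1327 and 1208 CPM with NR of batch 3, a log2 difference of -0.06 (SE 0.13, adjusted p = 0.921). Cpt1a was at 126.5 to 193 CPM and at 147 and 161.5 CPM, and Slc25a20 at 107 to 151 CPM and at 136 and 138 CPM, with vehicle first. Over the 10 genes the log2 differences ran from -0.06 (Cd36) to 0.26 (Fabp3), with SEs of 0.10 to 0.23.

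The 5 NR libraries of batch 2 lay far from both. Acsl1 was at 186 to 207 CPM in them, 533 to 965 CPM with vehicle and 719 and 836 CPM in NR of batch 3. Lpl was at 897.5 to 1119, 2400 to 3314, and 2425 and 3049 CPM in that order, and Cpt2 at 45.6 to 59.1, 117.5 to 185, and 153 and 160 CPM. Set against vehicle, the batch 2 libraries differed by -1.86 (SE 0.13) for Acsl1, -1.52 (SE 0.09) for Lpl, -1.46 (SE 0.14) for Slc27a1 and -1.39 (SE 0.11) for Cpt2 on the log2 scale. For Fabp4 the difference was 0.35 (SE 0.15, adjusted p = 0.0746), the only one of the 10 above 0. NR and batch cannot be told apart in these values, and 9851 genes passed in this comparison. The summed level of the 10 atrial cardiomyocyte markers was 31760 to 38600 CPM in batch 2 NR, 68430 to 82630 CPM with vehicle and 75950 to 77860 CPM in NR of batch 3, and that of the 15 endothelial markers 3789 to 4075, 2384 to 2718 and 2507 to 2616 CPM. That of the 11 white adipocyte markers was 48.5 to 273, 83.2 to 126 and 80.2 to 173 CPM in the same order, with Adipoq at 0.449 to 24.3, 0.0474 to 2.22 and 0 to 4.49 CPM. Lipe and Slc36a2 made up most of this sum with vehicle (means of 49.97 and 37.56 CPM) but not in batch 2 NR (23.2 and 14.38 CPM). Ucp1 reached 36.8 CPM in batch 2 NR and at most 0.0516 CPM in the others. The part of these shifts in the values of the 10 genes was not tested.

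Over the 16 batch 1 libraries of the diet experiment, Pearson's r of log2 CPM between the genes, which mixes diets, genotypes and depth, was described without a test. Cd36 ran with Fabp3 (r 0.852) and Slc25a20 (0.765) and opposite to Cpt1a (-0.833) and Slc27a1 (-0.755). Cd36 is at 38.4% GC, Fabp3 at 53.9%, Slc25a20 at 48.2%, Cpt1a at 51.3% and Slc27a1 at 56.9%, and the diet difference fell with GC. The part of GC content in these values of r was not tested. Acsl1 ran with Cpt2 (0.739), and Slc27a1 with Cpt1a (0.727). Lpl had no r above 0.441 with any of the other 9.

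**Figure D4:**
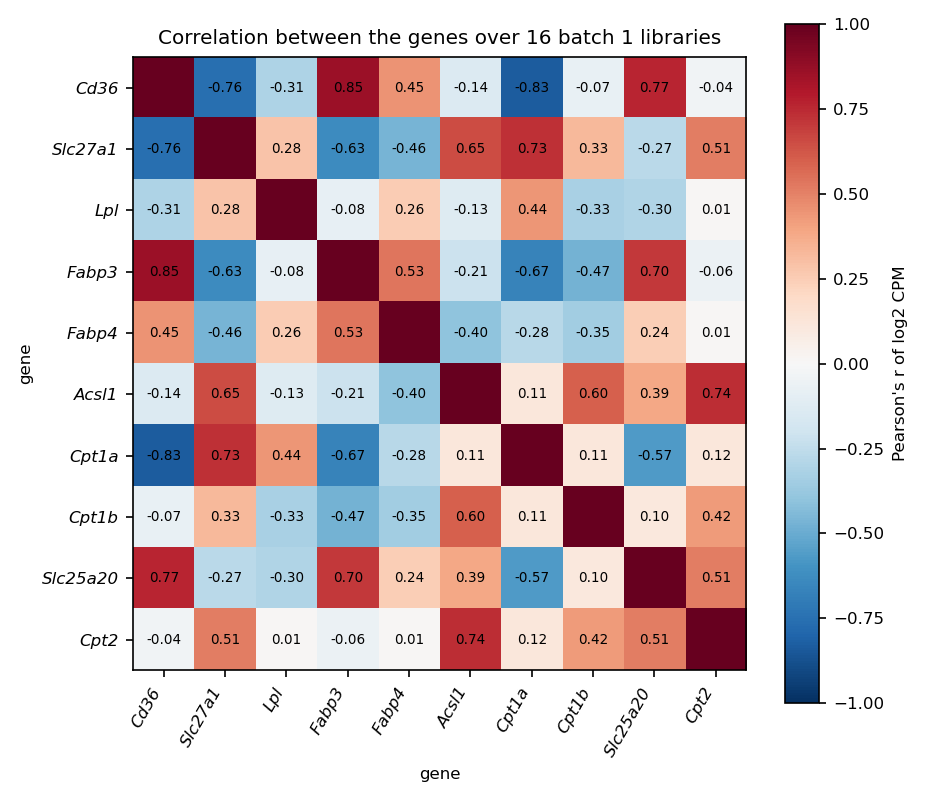
Pearson's r of log2 CPM between each pair of the 10 genes (both axes) over the 16 batch 1 libraries, from blue (-1) to red (1). Cd36, Fabp3 and Slc25a20 form a block of values from 0.70 to 0.85, and Cpt1a is negative with each of them.

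Among 10756 genes with a mean of at least 5 CPM, the nearest in pattern to Cd36 were Hsp90aa1 (a cytosolic HSP90 chaperone, r 0.962), Chordc1 (0.956) and Retreg1 (0.955). Slc25a20 was nearest to Hadha (the mitochondrial trifunctional protein's alpha subunit, 0.930), Etfdh (electron transfer flavoprotein dehydrogenase, 0.920) and Saraf (0.879). Cpt1a was nearest to 2410002F23Rik (0.921), Rnf167 (0.901) and Ddx56 (0.895), and among the nearest to Slc27a1 were Wnk2 (0.952) and Lonp1 (a mitochondrial protease, 0.948). Fabp3 was nearest to Fabp3-ps1 (0.929), which may share its reads, then Uqcrb (0.915) and Ccdc58 (0.913), and Fabp4 to Ly6a (0.881), Ppic (0.859) and Nras (0.839). The top value was lower for Lpl (2610028H24Rik, 0.813, Naa10, 0.789, and Mrpl43, 0.781) and Cpt2 (Tesmin, 0.840, Vwa8, 0.829, and Tecr, 0.798). Acsl1 was nearest to Fyco1 (0.937), Strip2 (0.859) and Ccdc9b (0.848), and Cpt1b to Arhgap21 (0.897), Usp24 (0.865) and Setd5 (0.863).

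The steps on either side of the 10 genes were read from fixed lists. Calls on these lists, and on the cell markers above, are given without the GC and length offsets, although the diet difference fell with GC. Of 17 beta-oxidation enzymes, all tested, 8 rose and none fell with the diet over both genotypes (median log2 difference 0.19, beside -0.01 over all genes). Ech1 (a dienoyl-CoA isomerase) rose by a log2 difference of 0.64 (SE 0.09, adjusted p = 0.00145), from a mean of 644 to 1040 CPM in controls and from 778 to 1167 CPM in NaV1.5 mice. Acadvl (very long-chain acyl-CoA dehydrogenase) rose by 0.39 (SE 0.06, adjusted p = 0.00364), though only 57.1% of its exon bases are free of the opposite-strand gene Dvl2, and Decr1 (dienoyl-CoA reductase) rose by 0.41 (SE 0.07, adjusted p = 0.00545). In NaV1.5 mice alone 5 of the 17 rose, Acadvl, Ech1 and Etfdh with the smallest p among them, and in controls alone none passed, with 8 at an unadjusted p under 0.05 (8.49% of all genes).

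Of 10 other carnitine shuttle and malonyl-CoA genes tested, 1 fell over both genotypes. This was Mlycd (malonyl-CoA decarboxylase, which removes the inhibitor of carnitine palmitoyltransferase 1), lower by a log2 difference of -0.36 (SE 0.08, adjusted p = 0.0163), from a mean of 133 to 96.7 CPM in controls and from 126 to 105 CPM in NaV1.5 mice. Of 14 other uptake and lipase genes tested, Cav1 (caveolin 1) rose by 0.30 (SE 0.08, adjusted p = 0.0450) and Zdhhc4 (a palmitoyltransferase known to modify CD36) fell by 0.24 (SE 0.06, adjusted p = 0.0402). None of 14 other acyl-CoA synthetase, binding and thioesterase genes passed (4 at an unadjusted p under 0.05, against 23.5% of all genes, Acss1 and Acbd5 nearest, adjusted p = 0.0724 and 0.0962).

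On a list of PPAR regulators and targets outside the 10 genes, none of the 18 tested passed over both genotypes. This list leaves out the beta-oxidation enzymes above, some of them also known PPAR targets, and shares genes with the uptake and acyl-CoA lists. Of the 18, 6 had an unadjusted p under 0.05 (23.5% of all genes) and 6 were above 0, with a median log2 difference of -0.10. Plin5 (perilipin 5) and Rxra (the RXR alpha receptor) were nearest (adjusted p = 0.0990 and 0.107). Of 14 triglyceride storage and breakdown genes, 2 fell and 1 had a difference above 0 (median -0.18). Pnpla2 (adipose triglyceride lipase) fell by 0.53 (SE 0.11, adjusted p = 0.0154), and Plin1, also a white adipocyte marker, fell by 2.45 (SE 0.60, adjusted p = 0.0304) from a mean of 1.04 CPM in Ctrl_RD. Of the 7 subunits of AMP-activated kinase, which lowers malonyl-CoA, Prkag2 fell by 0.45 (SE 0.08, adjusted p = 0.00777) and Prkab1 by 0.38 (SE 0.07, adjusted p = 0.0116).

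For genotype over both diets, 1 gene of these lists passed: Prkab2, a regulatory subunit of AMP-activated kinase, which was lower in NaV1.5 mice by a log2 difference of -0.34 (SE 0.07, adjusted p = 0.0482). None passed for genotype on RD, on HFD or for NR. On HFD the nearest included Pdk4 (pyruvate dehydrogenase kinase 4, a PPAR target), at a log2 difference of 0.96 (SE 0.28, adjusted p = 0.298).

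**Figure D5:**
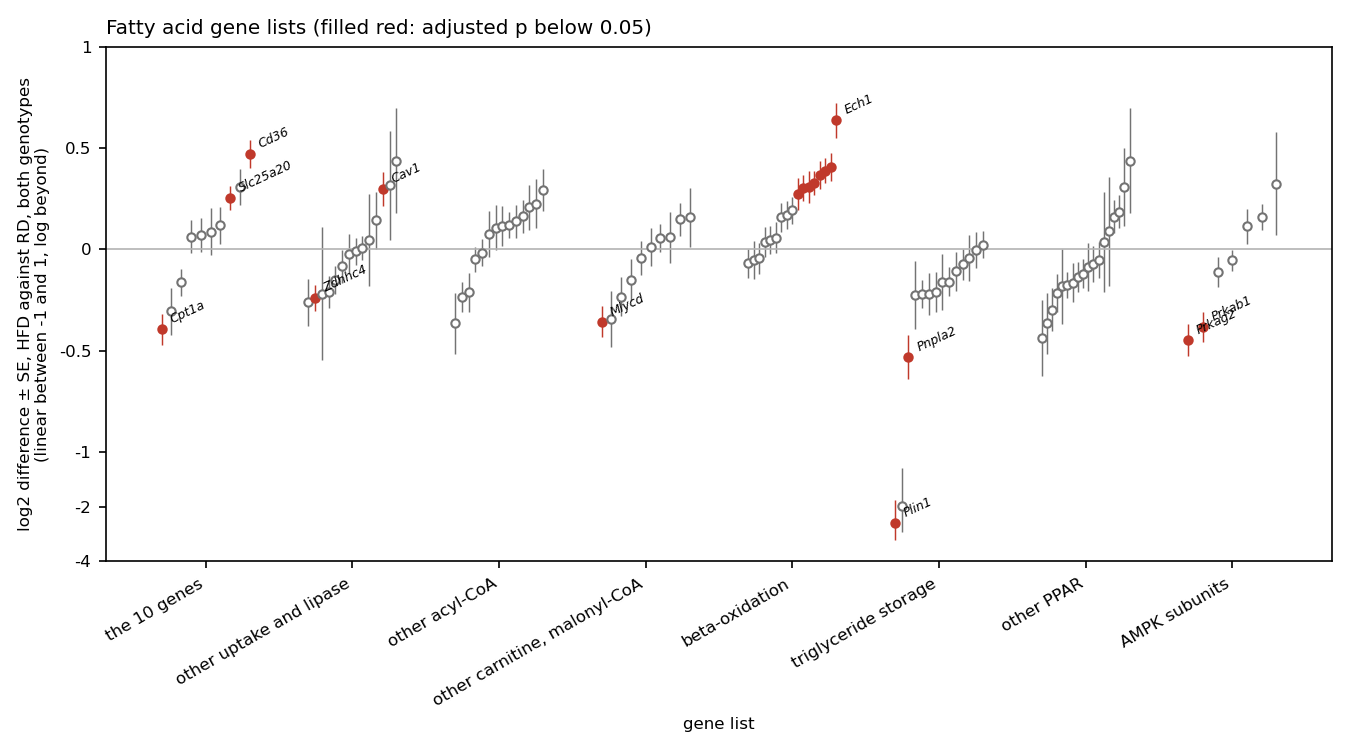
Log2 difference between diets over both genotypes with SE (vertical axis, linear between -1 and 1 and logarithmic beyond) for the tested genes of 8 fatty acid lists (horizontal axis); filled red marks an adjusted p below 0.05, and of the 8 red beta-oxidation genes only Ech1 is named. All 8 lie above 0, while the 2 called triglyceride genes, Pnpla2 and Plin1, lie below it.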

How the data were processed

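Atrial RNA was read out in 29 libraries. Per the labels' protocols, RNA from a miRNeasy micro kit entered a poly-A selected, stranded TruSeq preparation. The submitters' processing notes list STAR 2.7.6a, featureCounts 2.0.1 and FastQC 0.11.7, with GRCm38. Each deposited file holds raw counts, which the authors summed by gene name in featureCounts, per the file headers, from GENCODE M25, on read pairs, without strand and leaving out pairs that map to several places or overlap several genes. Antisense overlaps and near-identical copies are therefore uncertain.

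The test was the quasi-likelihood F-test of edgeR 4.0.16 in R 4.3.3 (robust, TMM scaling, filterByExpr), with group and batch as terms, 1 fit for the diet experiment and 1 for vehicle and NR, 2-sided, adjusted by Benjamini-Hochberg across every gene kept, at a threshold of 0.05. The script was tested on simulated data. An SE is the absolute log2 difference divided by the square root of F. CPM are scaled by TMM within each experiment, so levels are not compared across them. The 10 genes, lists, tests and alternatives were chosen with earlier results of these data known. Named were all 10 genes, up to 3 called genes per list and comparison (otherwise up to 2 not called) and 3 neighbours per gene, of which 1 is not reported here. Adipoq, Ucp1, Lipe and Slc36a2 were named after their values were seen. Alternatives were DESeq2 1.42.0 and its size factors, limma-voom (limma 3.58.1), no low-count filter, no batch term, GC and length offsets, the replicate number as a block, batch subsets and each library left out. Ratio tests used scipy 1.17.1 in Python 3.11.15 with 0.5 added per kilobase. Closest libraries within a group differed by a chi-square of 6.9 per gene, so none was taken as a duplicate.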

Additional observations from a re-analysis of the deposited data

Results flagged for a closer look

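In 60 sets of libraries (10 genes in 6 groups), 1 library stood outside Dixon's 95% limit. Chance alone gives about 1 in 20. Cpt1b in NaV1.5_HFD replicate 1 was at 11.35 CPM, the highest of its group, while the other 4 libraries lay between 8.91 and 9.59 CPM, and its gap was 0.722 of the group's range. Cpt1b counts are the remainder after the overlap with Gm44502.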

How the results depend on the processing

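No single gene of the diet experiment with an unadjusted p under 0.05 changed direction under any alternative. For the diet in controls, 0 genes became 1 with DESeq2 and 2 with limma-voom. For the diet in NaV1.5 mice, 1 became 2 with DESeq2 (811 genes called in all, against 182), 5 with limma-voom (1970 in all), 2 with GC and length offsets (45 in all) and 0 with the replicate block (27 in all). For the diet over both genotypes, 3 became 6 with limma-voom (3935 genes in all, against 800), and the block gave 2 (305 in all), the offsets 4 (230 in all) and DESeq2 4 (1586 in all). For NaV1.5 against control on HFD, 0 became 1 with no low-count filter, with DESeq2 and with limma-voom (43, 87 and 126 genes in all, against 14), and over both diets 0 became 1 with the same 3 (138, 262 and 507 in all, against 73). Against vehicle, NR of batch 2 gave 9 genes, and 10 with the replicate block, against 0 in the comparison within batch 3, and Fabp3 turned from 0.26 to -0.23 and, with the block, -0.23.

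Leaving out 1 library gave 0 to 1 genes for NaV1.5 against control on HFD and over both diets, 0 to 4 for the diet in NaV1.5 mice and 2 to 5 for the diet over both genotypes. The 4 and the 5 came without NaV1.5_RD replicate 4. The Cpt1b to Cpt1a log2 ratio passed under no alternative, for which groups this small leave little room. Its genotype difference on HFD ran from -0.31 to 0.05, the latter without Ctrl_HFD replicate 3. The cause of these changes was not tested. Replicate numbers showed no clear pairing of the libraries: of 16 same-numbered pairs, 4 had deviations correlated above 0.1 (median -0.03), as had 12 of 56 others. So few pairs cannot settle whether the numbers carry a pairing. The replicate block of the diet experiment also used the numbers given here to the libraries without one in their label. A block with the batch term could not be fitted for NR. Depth limits Cpt1b most, which had the fewest counts of the 10 genes.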
